A study of Mus musculus with 7 samples.

Results

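In female mouse liver, 3494 of the 67010 autosomal CTCF peaks, 5.21%, were strong peaks that lay at a promoter and were shared with cohesin. These regions were autosomal peaks of the CTCF list with a fold enrichment of at least 10, an overlap of at least 1 bp with a peak of Rad21, and a summit no more than 1 kb from an annotated transcript start of mm9. The fold enrichment is the height of the ChIP signal at the summit divided by the local background that the peak caller estimated. The regions were thus chosen by CTCF fold, the presence of a Rad21 peak and the distance to a start, and these values are given only as a description. The livers were from female Crl:CD1(ICR) mice of 8 weeks with no further treatment in the labels, and all libraries shared that strain, sex, age and tissue. There were 4 libraries immunoprecipitated for CTCF and 3 for Rad21, and there is 1 merged peak list for each antibody. Each factor is thus 1 sample, the spread between mice cannot be estimated, and no difference below carries a test. Intervals are 95% intervals over peaks (Wilson for shares, order statistics for medians) and cover counting error only. The lists hold no read counts, so the depth behind a peak is not known from them. Whole liver holds several cell types, and peaks of hepatocytes could not be separated from those of other cells.

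CTCF is a zinc finger protein that binds a long, asymmetric DNA motif, so a bound site has a direction. Cohesin is a ring complex of Smc1, Smc3, Rad21 and a Stag subunit that extrudes chromatin loops until it is stopped, most often by CTCF, and the N-terminal side of CTCF, which faces the 3′ side of the motif as it is written here, is the side that holds cohesin. Sites that carry both factors anchor loops and domain boundaries, and at a promoter such a site can place a gene beside a loop anchor. Many mammalian promoters lie in CpG islands, stretches rich in G, C and the dinucleotide CpG.

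The regions came from 22227 autosomal CTCF peaks of fold 10 or more, of which 21663 overlapped a Rad21 peak. At promoters, 3545 peaks reached that fold and 51 of them had no Rad21 peak. Their CTCF fold had a median of 15.9 (interquartile range 12.4 to 20.5), reached 20 or more in 959 and 30 or more in 43, and was highest at 38.2. At the fold limit, the members just inside were at 5033417F24Rik, Slco4a1 and Vps37c with CTCF folds of 10.002, 10.003 and 10.004, and the peaks just outside were at Rnf122 (9.99), Gm17589 (9.99) and Arf4 (9.98). At the distance limit, the members just inside lay 1000 bp (Gm20506), 998 bp (Sdk2) and 998 bp (8430427H17Rik) from a start, and the strong shared peaks just outside lay 1001 bp (Gm17394), 1001 bp (Isoc2b) and 1002 bp (Rrh) away. The regions were compared with 11072 shared peaks of the same minimum fold more than 10 kb from any start (strong shared distal peaks). The median CTCF fold of these distal peaks was 17.1. Further sets were 9984 shared promoter peaks with a CTCF fold under 10 (weak shared promoter peaks) and 25933 promoter windows. These windows reached 100 bp to either side of a protein-coding transcript start and overlapped no CTCF peak.

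The best matches to the CTCF motif at the 10 promoters with the highest CTCF fold are shown as the sequence found near the strongest summits, which need not be the bound site. Each line gives the gene with the nearest start and 30 bases of mm9, 5′ to 3′ on the strand of the match. Capitals mark the 20-bp match to the CTCF matrix that scored best within 100 bp of the summit, and lower case marks 5 flanking bases to either side.
Med4, chr14:73909696-73909725, plus strand: tccttTGCCCTGTAGATGGCGCTAGaactg
Kifc5b, chr17:27053725-27053754, plus strand: agcagCAGCCGCTAGGTGGCGCTCGctccg
Rapgef1, chr2:29475151-29475180, plus strand: actccAAGCCGGTAGAGGGCGCTGCgcctc
Sucla2, chr14:73924659-73924688, plus strand: acttgCAGCCAGGAGAGGGCAGAGCgagga
Gm13496, chr2:38853585-38853614, minus strand: cagagTAGCCTCTAGAGGGCGCGCTggccc
Lsm11, chr11:45758521-45758550, plus strand: agccgCGGCCACCAGGGGGCAGCATagatt
Abca14, chr7:127347515-127347544, minus strand: catcaCAGCCACGAGGGGACGCTCGtcgcc
Adprhl2, chr4:125998982-125999011, minus strand: actccGGGCCACAAGGGGGCGCTGTggggc
Acbd4, chr11:102964121-102964150, plus strand: gtgggTTTCCACCAGGGGGCGCGAGgactc
Gins4, chr8:24348349-24348378, minus strand: ccgatTCGCCACAAGACGGCGCTGCctggt
The matrix was learned from 1000 strong distal peaks on odd-numbered autosomes, so no promoter peak shaped it, and its consensus was TGGCCACCAGAGGGCACCAG. A match counted as a motif from 12.4 bits, a score that 1% of 26787 flanking windows reached. By that threshold 8 of the 10 matches were motifs, and those at Abca14 (12.3 bits) and Gins4 (11.7 bits) fell short of it. The match at Lsm11 scored highest of the 10, at 24.3 bits.

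Of these 10 peaks, 8 had the summit upstream of the start, and Rad21 folds ranged from 11.2 to 30.3 among them although CTCF folds were similar. Med4, a subunit of the Mediator complex that links transcription factors to RNA polymerase II, had the highest CTCF fold of all (38.2), with its summit 131 bp upstream of the start and a Rad21 fold of 11.2 (chr14:73909492-73910015). Its neighbour Sucla2, a subunit of succinyl-CoA synthetase of the citric acid cycle, had a peak 437 bp upstream with folds of 36.6 for CTCF and 23.0 for Rad21 (chr14:73924426-73924934). Kifc5b, a kinesin motor, had folds of 37.0 and 21.2 at 331 bp upstream, and Rapgef1, an exchange factor for Rap GTPases, had folds of 36.8 and 23.1 at 81 bp upstream. Lsm11, a protein of the U7 particle that processes histone mRNA ends, had folds of 34.1 and 23.8 at 86 bp upstream. Gins4, a subunit of the replicative helicase, had folds of 33.0 and 23.3 at 181 bp upstream. Adprhl2, an ADP-ribose hydrolase, had a CTCF fold of 33.7 but a Rad21 fold of 12.7. Acbd4, an acyl-CoA binding protein, had folds of 33.3 and 26.5. The exceptions in position were Abca14, an ABC transporter gene with its summit 3 bp downstream of the start and folds of 33.7 and 30.3, and the non-coding Gm13496, which shares its peak with Wdr38 (34.6 and 24.97, 131 bp downstream).

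The best matches to the matrix were not at the strongest peaks. The 3 promoters with the highest scores are shown for that contrast, in the same form.
Srrm3, chr5:136331202-136331231, minus strand: gcatgTGGCCACTAGGGGGCAGCAGaggcc
Hsd17b14, chr7:52811347-52811376, plus strand: ggtggTGGCCAGCAGAGGGCACCAGagatg
Elf3, chr1:137155849-137155878, minus strand: gcttcTGACCACTAGAGGGCAGCAGgcaga
Srrm3, a splicing factor gene of the nervous system, had 25.8 bits with a CTCF fold of 16.9, near the median of 15.9. Hsd17b14, a hydroxysteroid dehydrogenase, had 25.8 bits and a fold of 18.6, and Elf3, an epithelial ETS factor, had 25.7 bits and a fold of 14.7. At the other end, the best match at Gm10010 scored −14.4 bits, at Pemt, the enzyme that methylates phosphatidylethanolamine to phosphatidylcholine in hepatocytes, −13.1 bits, and at Hyou1, a chaperone of the endoplasmic reticulum, −12.2 bits. These 3 peaks had CTCF folds of 11.96, 10.4 and 10.2. Across all the regions, the median CTCF fold was 17.8 with a motif and 14.7 without one.

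A CTCF motif was called at 1366 of the 3494 strong shared promoter peaks (39.1%, 37.5 to 40.7%), beside 42.3% of all autosomal CTCF peaks of any strength. With a fold limit of 15 the share was 48.1%, above that of all peaks. On even-numbered autosomes, which the matrix had not seen, strong shared distal peaks carried one in 76.1% of 5092 (74.9 to 77.3%), and the promoter peaks of those chromosomes in 38.0%. The distal set resembles the peaks that trained the matrix, and how far this adds to its higher share was not tested. Weak shared promoter peaks had a motif in 5.21%, and promoter windows without a CTCF peak in 0.494%. Scores at strong promoter peaks were spread out and did not form a separate group above the threshold. A further 896 regions (25.6%) scored between 5.66 bits, which 5% of flanking windows reach, and the threshold, and 1232 (35.3%) scored lower still. The absence of a match says only that these letters were not found in the window.

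**Figure D1:**
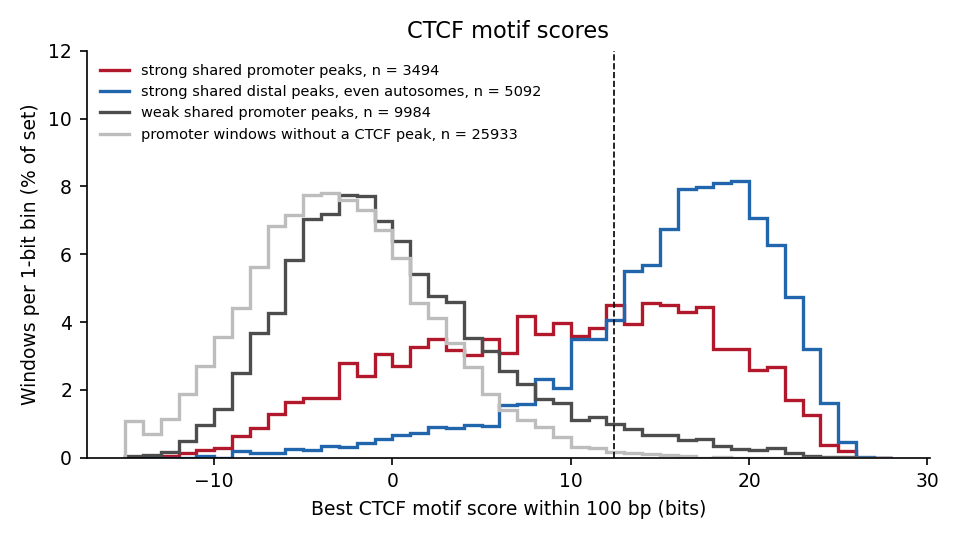
Best CTCF matrix score (bits) within 100 bp of the summit, or of the start for promoter windows without a peak, as percent of each set per 1-bit bin, with the dashed line at the 12.4-bit threshold. Strong shared promoter peaks spread from background scores to above 20 bits with 39.1% past the threshold, strong shared distal peaks lie mostly past it (76.1%), and weak shared promoter peaks lie mostly below it (5.21% past it), above the promoter windows without a peak (0.494%).

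Base composition divided the regions. In the sequence up to 250 bp to either side of the summit, 1867 of 3494 (53.4%, 51.8 to 55.1%) were CpG-rich, defined as at least 50% GC and an observed to expected CpG ratio of at least 0.6. The share was 16.4% among all autosomal CTCF peaks, 1.29% among strong shared distal peaks and 70.7% among weak shared promoter peaks. Of 43975 windows centred on starts of protein-coding transcripts, 48.0% were CpG-rich. With only such starts used for the rule, 64.7% of the strong shared promoter peaks were CpG-rich. The median GC content was 57.9% at strong shared promoter peaks, 45.7% at the distal and 62.9% at the weak promoter peaks. Motifs were less frequent where CpG was dense. They were called in 21.4% of CpG-rich regions (19.6 to 23.3%) and in 59.4% of the others (57.0 to 61.8%). Of the 1232 regions below the 5% threshold, 945 were CpG-rich. The called motifs themselves also differed, since 844 of 1366 (61.8%, 59.2 to 64.3%) held a CpG, against 39.8% at strong shared distal peaks and 42.3% at weak shared promoter peaks. In CpG-rich regions 364 of 399 called motifs held one (91.2%). CpG within the CTCF motif is a site where DNA methylation can act on CTCF binding, but methylation was not measured.

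Longer promoter stretches show these kinds of region. They were picked after the values were seen, as the strongest peaks of their kind whose window lay outside all transcripts and, for the pair with a motif, whose motif lay on the strand of transcription, and are 121 bp each on the strand of transcription of the nearest gene. Capitals mark the called motif at Med4 (CpG-rich, 7 CpG in the stretch) and at Top1mt (not CpG-rich, 4 CpG), and every CpG at Erlin2 (14 CpG, best score 4.19 bits).
Med4, chr14:73909665-73909785, plus strand: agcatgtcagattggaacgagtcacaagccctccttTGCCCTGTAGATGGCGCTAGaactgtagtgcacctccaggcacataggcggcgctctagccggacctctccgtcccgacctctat
Top1mt, chr15:75509828-75509948, minus strand: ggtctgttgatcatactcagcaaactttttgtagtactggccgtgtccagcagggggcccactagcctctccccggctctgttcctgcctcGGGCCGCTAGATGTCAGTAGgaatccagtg
Erlin2, chr8:28134056-28134176, plus strand: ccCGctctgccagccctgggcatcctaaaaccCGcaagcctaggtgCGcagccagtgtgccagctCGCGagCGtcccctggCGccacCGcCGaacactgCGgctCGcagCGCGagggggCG
Top1mt, the mitochondrial topoisomerase I, had folds of 29.9 for CTCF and 18.4 for Rad21 with the summit 658 bp upstream. Erlin2, a lipid raft protein of the endoplasmic reticulum, had folds of 31.9 and 24.7 at 215 bp upstream without a called motif.

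Summits of strong shared promoter peaks lay upstream of the nearest start more often than downstream. The start of any transcript counted, so an upstream summit can lie inside another transcript, as at Sucla2, where it lay in an intron. They were upstream in 2051 (58.7%, 57.1 to 60.3%), downstream in 1440 (41.2%) and at the start itself in 3, while 43.2% of all 15970 autosomal CTCF peaks within 1 kb were upstream. Among weak shared promoter peaks the order was turned, with 36.6% upstream and 63.2% downstream. The median distance to the nearest start was 163 bp (interquartile range 77 to 456 bp). The first 200 bp upstream held 1188 regions (34.0%) and the first 200 bp downstream 750 (21.5%), against 19.01% and 40.1% of weak shared promoter peaks. The upstream share was higher at stronger peaks, from 49.97% at CTCF folds of 10 to 15 to 60.1%, 68.5% and 77.3% at 15 to 20, 20 to 25 and 25 or more. It was 76.2% where a CpG-rich promoter held a motif (71.8 to 80.1%, n = 399) and 51.9% in CpG-rich regions without one. By annotation, 1304 summits (37.3%) lay outside any transcript, 1104 (31.6%) in introns, 551 (15.8%) in UTRs, 323 (9.24%) in coding exons and 212 (6.07%) in exons of non-coding transcripts.

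**Figure D2:**
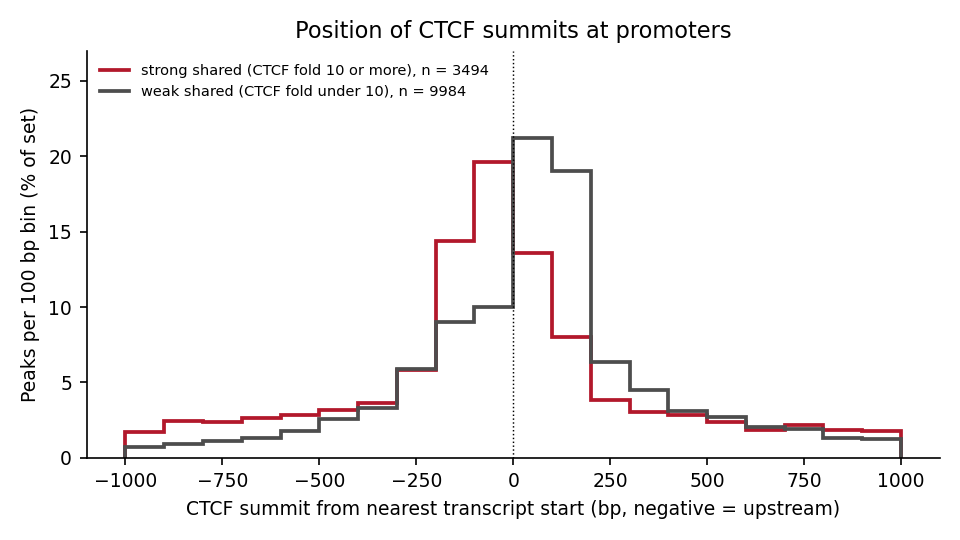
Signed distance (bp) from the nearest transcript start to the CTCF summit, as percent of each set per 100 bp bin, for strong and weak shared promoter peaks. The tallest bin of the strong peaks is the 100 bp before the start (19.6%), and that of the weak peaks is the 100 bp after it (21.2%).

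The strand of the motif was set against the strand of transcription, which asks whether the site points along the gene. Among regions whose starts were all on 1 strand, the motif lay on the strand of transcription in 721 of 1277 (56.5%, 53.7 to 59.2%), beside 54.9% of all such CTCF peaks within 1 kb, a set that includes these regions. The share was 59.6% for summits upstream of the start (504 of 845, 56.3 to 62.9%) and 50.2% for summits downstream (217 of 432, 45.5 to 54.9%). In CpG-rich promoters 242 of 355 motifs lay on the strand of transcription (68.2%, 63.2 to 72.8%), against 52.0% of 922 elsewhere (48.7 to 55.2%). For CpG-rich promoters with an upstream summit it reached 72.5% (198 of 273, 66.9 to 77.5%), and with a downstream summit 53.7% (44 of 82, 42.9 to 64.0%). An upstream motif on the strand of transcription has its 3′ side toward the gene. At weak shared promoter peaks 50.5% of 487 motifs lay on the strand of transcription.

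The Rad21 fold was lower at strong shared promoter peaks than at distal peaks of the same minimum CTCF fold. The rule required a Rad21 peak but not its height. The fold describes the summit only, and Rad21 peaks were wider at promoters (median 599 bp) than at distal sites (471 bp). The Rad21 fold had a median of 9.16 (8.96 to 9.42, range 2.13 to 30.4) at promoters and 13.2 (13.0 to 13.4) at distal sites, with 4.65 at weak shared promoter peaks. A Rad21 fold under 5 was found at 407 promoter regions (11.6%) and 6.10% of distal peaks, and a fold of 20 or more at 245 (7.01%) and 16.0%. The gap was present at each level of CTCF. In the CTCF fold bins of 10 to 15, 15 to 20, 20 to 25 and 25 or more, which held 1529, 1006, 673 and 286 promoter regions, the median Rad21 fold was 6.99, 10.5, 13.4 and 14.6 at promoters and 9.05, 13.8, 17.9 and 21.9 at distal sites. CTCF and Rad21 folds rose together across the promoter regions (Spearman correlation 0.55, n = 3494) and the distal ones (0.61, n = 11072). These are descriptions across peaks, which share the merged libraries and local base composition. The motif share was 27.5%, 48.2%, 47.7% and 48.6% in the 4 bins at promoters and 68.8%, 80.0%, 80.0% and 81.7% at distal sites of even-numbered autosomes.

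**Figure D3:**
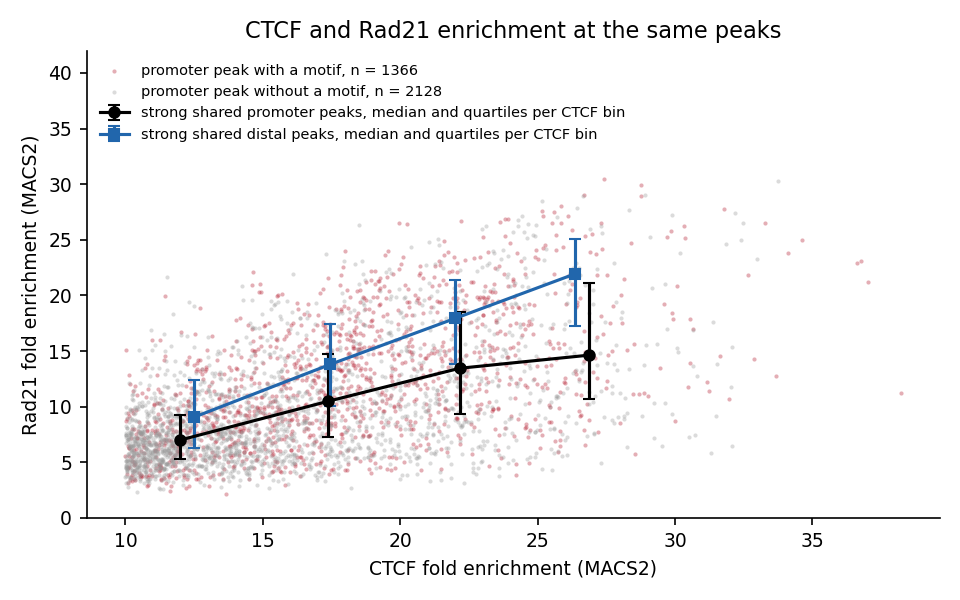
Rad21 fold enrichment against CTCF fold enrichment at the 3494 strong shared promoter peaks, coloured by motif, with the median and quartiles of Rad21 per CTCF bin for promoter and distal peaks. The promoter medians (6.99 to 14.6) lie below the distal medians (9.05 to 21.9) in all 4 bins, with overlapping quartiles.

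The levels of both factors differed between regions grouped by motif and CpG content. CpG-rich regions with a motif (n = 399) had median folds of 21.2 for CTCF and 11.6 for Rad21, and CpG-rich regions without one (n = 1468) 14.5 and 7.52. Outside CpG-rich sequence, the medians were 16.6 and 11.4 with a motif (n = 967) and 14.9 and 9.30 without (n = 660). CTCF folds are subject to the rule's minimum of 10, so the CTCF medians describe the chosen peaks only. The regions with the highest Rad21 fold were at 2410042D21Rik (30.4), Abca14 (30.3), the non-coding Gm12052 (29.9), Dusp23, a phosphatase (29.04), and Arhgap22, a GTPase-activating protein (29.02). Their CTCF folds of 26.7 to 33.7 were also high. The lowest Rad21 folds were at Gramd1b, a sterol transport protein (2.13), 5133401N09Rik (2.34), Ppp1r13l, an inhibitor of p53 (2.38), Slc44a3, of the choline transporter family (2.58), and Mcf2l, a guanine nucleotide exchange factor (2.61). Gramd1b combined the lowest Rad21 fold with a motif of 24.7 bits and a CTCF fold of 13.7.

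The summits of CTCF and Rad21 were close together. Their distance had a median of 27 bp, and 74.99% lay within 50 bp, against 88.1% of strong shared distal peaks and 40.4% of weak shared promoter peaks. In 237 regions (6.78%) they were more than 200 bp apart, and 3.72% of regions overlapped more than 1 Rad21 peak. Along the motif, CTCF summits lay at a median of −9.5 bp from its centre (−10.5 to −8.5), on the 5′ side, and Rad21 summits at +13.5 bp (10.5 to 15.5), on the 3′ side. Rad21 was farther to the 3′ side than CTCF in 972 of 1366 regions (71.2%, 68.7 to 73.5%), beside 73.2% of all shared CTCF peaks with a motif and 76.6% of strong shared distal peaks. In CpG-rich regions it was 257 of 399 (64.4%) with a Rad21 median of +7.5 bp. The Rad21 median was 14.5 and 17.5 bp in the CTCF bins under 20, and 10.5 and 0.5 bp at folds of 20 to 25 and of 25 or more. A displacement of this size is much smaller than the peaks, whose median widths were 573 bp for CTCF and 599 bp for Rad21.

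**Figure D4:**
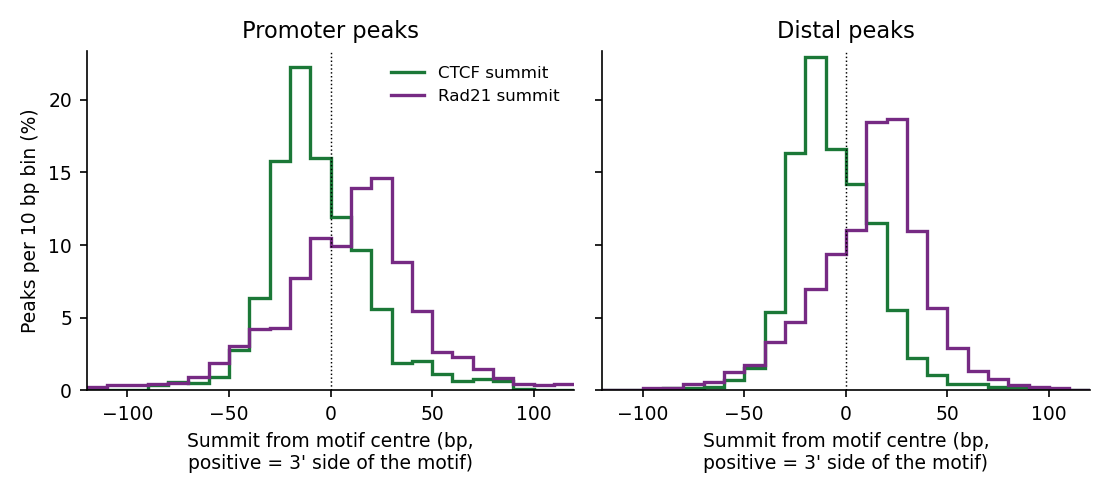
Position of CTCF and Rad21 summits relative to the centre of the called motif (bp, positive on the 3′ side), as percent of peaks per 10 bp bin, at promoter and distal strong shared peaks. CTCF summits centre just 5′ of the motif centre (median −9.5 bp at promoters) and Rad21 summits 3′ of it (13.5 bp at promoters, 16.5 bp at distal peaks).

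Promoters with starts on both strands, divergent or not, and crowded promoters were not frequent. Starts of genes on both strands lay within 1 kb of 383 summits (10.96%, 9.97 to 12.04%), beside 14.6% of all CTCF peaks within 1 kb and 16.8% of weak shared promoter peaks. With starts of protein-coding transcripts only, the share was 7.23%. These 383 were CpG-rich in 75.7% and had a motif in 23.2%, with a median Rad21 fold of 7.53. Most regions (3075) had the starts of 1 gene, 411 of 2 genes and 8 of 3 or more, such as the peak shared by Dnlz, Card9 and Gm13562 with a CTCF fold of 17.3. The nearest start was that of a protein-coding gene in 3076 (88.0%), and otherwise mostly of a processed transcript (120), lincRNA (109), pseudogene (57), snoRNA (55), snRNA (33) or miRNA (28). Where it was not protein-coding, a motif was more frequent (59.1% against 36.4%), CpG-rich sequence rarer (18.7% against 58.2%) and the median Rad21 fold higher (11.9 against 8.93). In all, 3250 of 21281 autosomal protein-coding genes (15.3%) had such a peak, from 11.5% on chromosome 14 to 18.3% on chromosome 11. Among them 127 had 2 or more, and Cuedc1, Kdm2b, Pcdhgc5 and Trpm5 had 3 each.

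The genes with these peaks were counted in lists chosen with earlier results of these data known, beside the 15.3% of all protein-coding genes. Of the genes for cohesin and CTCF themselves, 7 of 16 had one (43.8%, 23.1 to 66.8%). They were Ctcf (folds of 17.3 for CTCF and 9.54 for Rad21), the ring subunits Smc3 (24.1 and 25.7) and Stag1 (24.6 and 17.0), the loader Nipbl (13.5 and 3.90), the regulators Pds5a (11.5 and 14.1) and Pds5b (27.8 and 19.03), which bind cohesin and affect its release, and the acetyltransferase Esco1 (27.99 and 8.54). Rad21 was not among them. Growth hormone signalling, which sets many sex differences of liver, had one at 8 of 16 genes (50%, 28 to 72%). These included the receptor Ghr (22.2 and 9.97, 11 bp downstream of a start), the transcription factors Stat3 (26.1 and 21.8) and Stat5a (13.1 and 7.17), the feedback inhibitors Socs1 (12.4 and 5.88), Socs2 (17.8 and 11.8) and Socs3 (14.7 and 8.35), and the phosphatase Ptpn6 (12.8 and 4.62). Of the 16 genes, 6 had only a weak shared peak (37.5%, against 34.2% of all protein-coding genes), 1 only a peak without Rad21 (6.25% against 4.24%) and 1 no CTCF peak within 1 kb (6.25% against 46.2%).

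In lists of liver function, the intervals of the shares all included the 15.3% of all protein-coding genes, except for the Cyp genes. Hepatocyte transcription factors had a strong shared peak at 6 of 21 genes (28.6%, 13.8 to 49.96%), with Cux2, a female-biased repressor in liver, at folds of 26.9 and 14.7, Foxa3, a pioneer factor, at 18.5 and 17.7, Cebpa at 13.0 and 2.90, Cebpb at 11.3 and 4.53, and the xenobiotic receptor Nr1i2 at 11.5 and 8.68. Plasma proteins made by liver had one at 1 of 25 genes (4%, 0.710 to 19.5%), and 16 of the 25 (64%) had no CTCF peak of any strength within 1 kb of a start, against 46.2% of all protein-coding genes. The 1 gene was Apob, the structural protein of very low density lipoprotein, with the summit 966 bp downstream of the start (19.8 and 14.2). Liver metabolism had 3 of 27 (11.1%), among them Asl of the urea cycle (14.3 and 8.08) and Acaca of fatty acid synthesis (12.2 and 14.0). Among clock genes 3 of 18 (16.7%) had one, which were Npas2 (18.1 and 17.9), Bhlhe40 (16.7 and 4.65) and Nr1d2 (11.5 and 11.8). Of 100 Cyp genes, the cytochrome P450 enzymes, 6 had one (6%), with Cyp1b1 at folds of 21.0 and 11.7 and Cyp2b10 at 17.0 and 11.3. Cyp2b10 and Cyp2b19 are close paralogs with the same motif score of 16.0 bits, and since the authors kept uniquely mapped reads their values are uncertain. Of 21 Ugt genes none had one, which allows a share of up to 15.5% by the Wilson bound.

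Families of general cell functions varied in their shares. Such peaks were at 22 of 79 genes of cytosolic ribosomal proteins (27.8%, 19.2 to 38.6%), among them Rps3a (32.1 and 6.48) and Rplp0 (25.8 and 6.99), at 12 of 40 Nduf genes, subunits and assembly factors of respiratory complex I (30.0%, 18.1 to 45.4%), among them Ndufc1 (27.3 and 14.9), and at 9 of 28 Polr genes, subunits of RNA polymerases (32.1%, 17.9 to 50.7%), among them Polr3gl (28.1 and 21.5). Mitochondrial ribosomal proteins had 16 of 77 (20.8%), with Mrpl17 at 32.4 and 24.96. A Rad21 fold under 5 beside a CTCF fold over 20 was seen at single members, as at Mrpl34 (24.7 and 4.95) and Ndufaf4 (23.2 and 4.69). The other members whose folds are given in this paragraph had a Rad21 fold over 5. The share of such peaks in these families or over all regions is not given here. These families were taken by the start of the gene symbol, so they also hold genes of other function, such as Psmc3ip, a recombination factor, and the Argonaute gene Eif2c1. Shares near the background were found for genes named Eif, most of them translation factors (9 of 55, 16.4%), genes named Psm, most of them of the proteasome (7 of 49, 14.3%), Slc carriers (52 of 356, 14.6%), Tmem genes (38 of 208, 18.3%) and Zfp zinc finger genes (61 of 361, 16.9%). Shares below it were found for olfactory receptor genes, with 2 of 1106 (0.181%), and for histone genes, with 3 of 67 (4.48%).

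Among developmental and imprinted genes, Hox genes had 6 of 39 (15.4%), 4 of them in the Hoxa cluster, with Hoxa7 at folds of 25.2 and 27.2 and Hoxa6 at 23.5 and 12.7. Genes annotated under a Pcdh symbol, the protocadherins, had 3 of 34 (8.82%), and any gene missing from the annotation was not counted. Imprinted genes had 8 of 33 (24.2%, 12.8 to 41.0%), including Grb10, an inhibitor of insulin and growth factor signalling (21.4 and 17.6), the non-coding Meg3 (18.2 and 16.0) and Peg10 and Sgce, which share 1 peak (11.1 and 4.33). No CTCF peak lay within 1 kb of 16 of the 33 (48.5%), near the 46.2% of all protein-coding genes. Peaks at promoters of the same gene cluster are not independent of one another.

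**Figure D5:**
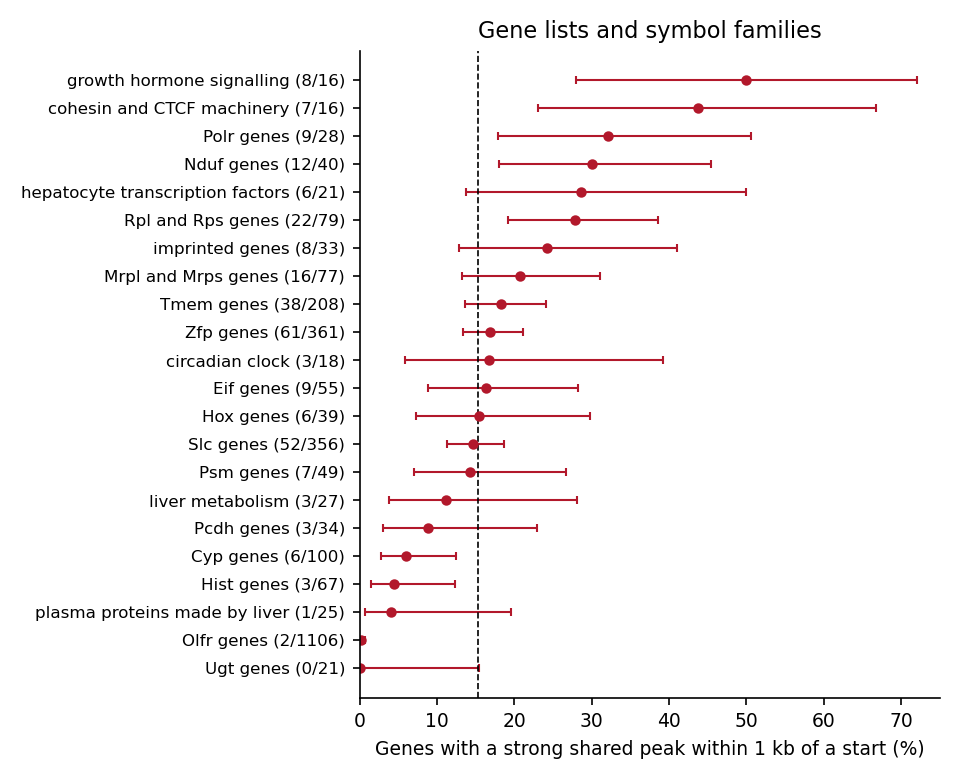
Percent of the annotated autosomal genes of each list or symbol family with a strong shared peak within 1 kb of a start, with 95% Wilson intervals and the counts beside each name; the dashed line is the 15.3% of all protein-coding genes. Growth hormone signalling (8 of 16) and the cohesin and CTCF genes (7 of 16) lie highest, and Ugt genes (0 of 21) and olfactory receptor genes (2 of 1106) lowest.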

How the data were processed

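ChIP-seq was performed on female mouse liver for CTCF (4 libraries) and Rad21 (3 libraries). Per the study's methods, the authors aligned reads with Bowtie2 to mm9, kept unique alignments, called peaks with MACS2 and removed blacklisted regions. Each deposited list gives the authors' fold enrichment (a ratio over local background), −log10 p and q values (p was not used), a score and the summit offset. These were used as deposited, and CTCF and Rad21 values were not put on a common scale. The lists are named as merged, and the methods describe combining replicate reads per factor. That the peaks were called on combined reads is inferred and not stated. No value belongs to 1 library, and depth is not in the lists. A region without a peak may still be bound below the calling threshold.

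Regions and lists were chosen with earlier results of these data known. Overlaps, distances to GENCODE starts and motif scores were computed with pysam 0.24.0, samtools 1.23.1, numpy 2.4.6, pandas 2.3.3 and scipy 1.17.1, and plots with matplotlib 3.10.9. The 20-bp matrix came from sequence within 50 bp of distal summits. The scan was tested on simulated data, where it found 489 of 500 inserted motifs and made a call in 10 of 500 sequences that held none. The peaks named are the 10 of highest CTCF fold, the 5 of highest and of lowest Rad21 fold, the 3 of highest and of lowest motif score, those with most genes within 1 kb, those beside the limits, and members at listed genes (up to 6 a list). Outside this, members beyond 6 in the cohesin and growth hormone lists, Top1mt, Erlin2 and genes with 3 peaks were named after their values were seen, and counts of neighbouring peaks and of fold classes were added then. Alternatives were other fold and distance limits, overlap rules, q minimum, protein-coding starts only and motif settings. Values of some members are not reported here.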

Additional observations from a re-analysis of the deposited data

How the results depend on the processing

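No paired analysis was possible because there is 1 merged list per antibody, and for the same reason leaving out a replicate was not run. The comparison sets were not recomputed under the alternatives. The motif share, below the 42.3% of all autosomal CTCF peaks as reported, was above it with a fold limit of 15. With summits within 100 bp it was 42.3% and thus no longer below. The median position of the Rad21 summit along the motif stayed between 12.5 and 13.5 bp in the alternatives where it was recomputed. It was not recomputed under the other motif settings. The distance between the Rad21 and CTCF summits was not recomputed. With a CTCF fold limit of 8, the median Rad21 fold was 7.94, the motif share 33.5%, the upstream share 54.8% and the CpG-rich share 57.0%. With a limit of 15 there were 1965 regions at 1822 protein-coding genes, and the first 3 of these values were 12.01, 48.1% and 65.5%, with starts on both strands at 9.82%. Within 500 bp of a start, the Rad21 median was 8.76, the motif share 33.5%, the share on the strand of transcription 59.95%, the CpG-rich share 63.7% and starts on both strands 13.1%. With protein-coding transcripts only, these 5 values were 8.71, 31.5%, 60.1%, 64.7% and 7.23%. Overlap of 50% gave a Rad21 median of 9.42, summits within 100 bp gave 9.84 with a motif share of 42.3% and a CpG-rich share of 50.3%, and −log10 q of at least 10 gave 9.45. The motif share was 64.7% at a 5% background rate, 46.5% with the threshold set on promoter windows, and 47.5% within 50 bp of the summit. Using the Rad21 peak with the nearest summit, an alternative chosen after seeing the data, moved neither the Rad21 fold nor the position of its summit along the motif. The causes of these shifts were not tested.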

Other observations

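Strong shared promoter peaks lay closer to other strong shared peaks, at promoters or elsewhere, than distal ones did. The nearest other strong shared peak was a median of 20682 bp away (19709 to 21677 bp), against 25675 bp for strong shared distal peaks. Another CTCF summit lay within 3 kb of 25.9%, against 14.8% of the distal peaks. By their definition, distal peaks lay more than 10 kb from any start, so no promoter peak could lie within 3 kb of them. The choice of sets can thus build in part of these differences, and how much was not tested. Of 1364 promoter motifs, 52.4% (49.8 to 55.1%) pointed at a next strong shared motif that faced back, at a median distance of 55408 bp, and the share was 52.5% for 8394 distal motifs, whose next motif was 97034 bp away. CpG-rich promoter windows without a CTCF peak held a motif in 32 of 5808 (0.551%), against 21.4% of the CpG-rich strong shared promoter peaks.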
